A study of Mus musculus with 7 samples.

Results

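Serpins are protease inhibitors, and 8 mouse serpin genes were followed here in hearts with myocarditis of the kind caused by immune checkpoint inhibitors (ICI). They were 6 genes of the Serpina3 cluster (Serpina3f, Serpina3g, Serpina3h, Serpina3i, Serpina3m and Serpina3n) and 2 clade B genes, Serpinb9 and Serpinb6b. Each was taken by its name, and all 8 were found among the 23420 gene rows of the expression table. The names were selected on earlier results of the same normalized counts, in which most of these genes differed between the 2 groups, so the members' own differences between groups are given as descriptions, without p-values.

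RNA from cardiac ventricle, a tissue that the sample labels call whole heart, was measured by stranded total RNA sequencing of 7 mice. The 3 ICI-myocarditis mice carried the genotype Ctla4+/-;Pdcd1-/-, and the 4 control mice were Ctla4+/+;Pdcd1-/-, so controls as well as diseased mice were labelled as lacking Pdcd1, the gene for the checkpoint receptor PD-1. All were untreated and 3 to 6 weeks old. The alleles stand in for checkpoint blockade, no inhibitor was given, and the labels name no promoter, cell type or sex.

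A serpin holds its reactive centre loop out as bait: the target protease cuts the loop, the serpin refolds, and the protease is trapped in a covalent complex. The sequence of the loop largely sets which protease is caught. Clade B serpins work mostly inside cells, where they protect leukocytes and their targets from leaked granzymes, whereas most clade A serpins are secreted. In the mouse, the single human gene SERPINA3 (antichymotrypsin) corresponds to a tandem cluster of copies whose loops have diverged. Serpina3n is secreted in the acute phase and inhibits granzyme B, cathepsin G and leukocyte elastase. Serpina3g, also called Spi2A, acts in the cytosol and nucleus against lysosomal cysteine cathepsins, among them cathepsins B and L. Serpinb9, also called SPI6, inhibits granzyme B, and Serpinb6b inhibits granzyme A.

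The members lie on 2 chromosomes. In GENCODE release M21 (GRCm38, plus strand throughout), Serpina3f spans chr12:104214544-104221129, Serpina3g chr12:104236245-104241939, Serpina3h chr12:104247905-104253669, Serpina3i chr12:104263122-104269372 and Serpina3n chr12:104406729-104414329. Serpina3m is annotated at chr12:104338486-104394257, a span that overlaps the neighbouring Serpina3k, while RefSeq starts Serpina3m at 104387157. Serpinb6b (chr13:32965209-32979067) and Serpinb9 (chr13:33003250-33017957) are near neighbours on chromosome 13. Of the 8, Serpina3h is a transcribed pseudogene in both annotations and the other members are protein-coding.

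The Serpina3 copies are close in sequence, and the stretch that codes for the reactive loop was less alike than the coding sequence as a whole. Aligned coding bases were 90.1% identical between Serpina3f and Serpina3g (696 bases), 92.1% between Serpina3f and Serpina3i (1216 bases) and 86.6% between Serpina3f and Serpina3n (1203 bases). Serpinb9 and Serpinb6b shared 73.5% of 1085 aligned bases. The stretch below runs from the hinge of the loop to the conserved bases after it, in the final exon of each gene, and is shown because this loop sets which protease an inhibitor catches. It was chosen after the alignment had been seen. Letters are in 5′ to 3′ direction, and capitals mark bases that differ from Serpina3n.
Serpina3n, chr12:104413448-104413542: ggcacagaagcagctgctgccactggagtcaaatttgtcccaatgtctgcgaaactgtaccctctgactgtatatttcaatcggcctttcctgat
Serpina3f, chr12:104220245-104220342: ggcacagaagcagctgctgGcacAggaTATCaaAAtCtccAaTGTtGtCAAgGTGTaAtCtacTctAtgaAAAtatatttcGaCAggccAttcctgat
Serpina3g, chr12:104241072-104241166: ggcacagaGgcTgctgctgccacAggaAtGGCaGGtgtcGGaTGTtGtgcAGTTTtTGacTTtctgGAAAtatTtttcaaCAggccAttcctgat
Serpina3h, chr12:104253511-104253605: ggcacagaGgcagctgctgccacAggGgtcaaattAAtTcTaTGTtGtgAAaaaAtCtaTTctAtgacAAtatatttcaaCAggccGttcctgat
Serpina3i, chr12:104268480-104268574: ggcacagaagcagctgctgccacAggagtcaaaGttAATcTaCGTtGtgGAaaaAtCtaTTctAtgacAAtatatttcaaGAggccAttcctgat
Serpina3m, chr12:104393769-104393863: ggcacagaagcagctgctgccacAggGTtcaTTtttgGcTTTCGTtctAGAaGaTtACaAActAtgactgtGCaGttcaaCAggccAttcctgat
Over the 95 bases aligned, identity to Serpina3n was 66.3% for Serpina3g, 69.5% for Serpina3f, 70.5% for Serpina3m, 75.8% for Serpina3h and 76.8% for Serpina3i. Serpina3h and Serpina3i were the closest pair, at 90.5%. The same pair was 94.2% identical over 1032 bases of the longer alignment. In Serpina3h, 1 of 2 annotated transcripts held this stretch.

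Such copies can share sequencing reads. Over all annotated transcripts of each gene, no run of 150 bases, the labelled read length, in Serpina3f, Serpina3g, Serpina3h, Serpina3i, Serpina3n, Serpinb9 or Serpinb6b was also present in another gene, and for Serpina3m 0.331% of such runs were. Of runs of 75 bases, 10.97% were shared for Serpina3h, 9.65% for Serpina3m, 7.69% for Serpina3g, 6.62% for Serpina3i, 5.33% for Serpina3f and 1.46% for Serpina3n. Neither clade B member shared any. How reads that map to several genes were counted is not given in the sources used here, so the split of reads among Serpina3f, Serpina3g, Serpina3h and Serpina3i carries this uncertainty.

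Libraries held 20931730 to 39037176 reads assigned to genes. Values below are normalized counts, meaning reads per gene that the authors scaled by a size factor for each library, and a level per kb is that value over the total exon length of the gene. Control 2 stood apart from the other controls. Its summed T and NK cell markers (11 of 12 listed markers in the table, none of them at 0 in all libraries) reached 2087.20 normalized counts, against 151.39 to 281.39 in the other controls and 9141.40 to 13639.00 in ICI-myocarditis. Control 4 differed in liver markers, whose sum was 857.04 against 95.78 to 108.31 in controls 1 to 3 and 105.81 to 241.45 in ICI-myocarditis. Summed cardiomyocyte markers were at 1843127.27 or above in all 7 libraries, so the labelled tissue was present in each. No member is among the markers.

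Serpina3g was the most abundant member per length in the diseased hearts. Controls 1 to 4 held 36.3, 1441, 77.0 and 53.8 normalized counts of it, and ICI-myocarditis 1 to 3 held 5513, 5208 and 7920. Every ICI-myocarditis heart was above every control, and control 2 stood 25.9 times above the mean of the other controls. The group means were 402 ± 693 (SD, n = 4) and 6214 ± 1485 (SD, n = 3), a ratio of 15.5. On the log2(normalized count + 1) scale the limma fold change of Serpina3g was 5.63 (SE 1.07), against 3.89 from edgeR and 6.81 with control 2 left out. The authors' deposited table gives a log2 fold change of 3.95 for Serpina3g and no p-value. In whole tissue, more cells that express a gene and more RNA of it per cell cannot be told apart, here and for every gene below.

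Serpina3f, a close copy whose own loop differs from that of Serpina3g, followed the same order of libraries apart from the 2 lowest hearts of each group. Controls 1 to 4 held 15.1, 777, 15.6 and 10.01 normalized counts, and ICI-myocarditis 1 to 3 held 1796, 2166 and 4063. Controls 1, 3 and 4 were close to one another, at 13.6 ± 3.11 (SD, n = 3), and control 2 was 57.2 times their mean. The diseased hearts averaged 2675 ± 1217 (SD, n = 3), against 204 ± 382 (SD, n = 4) in all controls. The ratio of those means was 13.1, while the limma log2 fold change of Serpina3f, which averages logs, was 6.01 (SE 1.29) and edgeR's estimate was 3.65.

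Serpina3i was at or near the detection floor in 3 controls and present in every diseased heart. Its recovered reads were 4, 46, 1 and 2 in controls 1 to 4, or 4.03, 56.7, 1.12 and 2.50 normalized counts. In ICI-myocarditis 1 to 3 its normalized counts were 326, 364 and 474. Control 2 was again the high control, 22.2 times the mean of the others, and the diseased mean of 388 ± 77.0 (SD, n = 3) was 6.84 times control 2. The limma log2 fold change of Serpina3i was 5.82 (SE 0.974), against 4.57 from edgeR, 4.59 from DESeq2 and 6.85 with control 2 left out. Only control 2 among the controls reached 10 normalized counts, so the gene entered the test through the diseased group.

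Serpina3h, the pseudogene, was low but separated the groups. The controls held 25.2, 45.6, 14.5 and 5.0 normalized counts, and the ICI-myocarditis hearts 125, 116 and 111. The 3 diseased hearts lay close together, at 117 ± 7.10 (SD, n = 3), whereas controls spread over 22.6 ± 17.4 (SD, n = 4). The limma log2 fold change of Serpina3h was 2.68 (SE 0.622). Serpina3h had the largest share of 75-base runs in common with other genes among the members (10.97%), 7.66% with Serpina3g and 6.70% with Serpina3i. What part of its reads came from those copies was not tested.

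Serpina3n, the secreted granzyme B inhibitor, differed from its neighbours in the controls. Controls 1 to 4 held 131, 229, 147 and 146 normalized counts of it, and ICI-myocarditis 1 to 3 held 1170, 1481 and 4840. Controls were tight, at 164 ± 44.5 (SD, n = 4), and control 2 was 1.62 times the mean of the others. ICI-myocarditis 3 was far above the other diseased hearts, so the diseased mean carried a wide spread, 2497 ± 2035 (SD, n = 3). The lowest diseased heart was still 5.10 times the highest control. The limma log2 fold change of Serpina3n was 3.66 (SE 0.450), the smallest standard error among the Serpina3 members tested.

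Serpina3m was barely detected, with 0, 1, 1 and 2 recovered reads in controls and 0, 2 and 6 in ICI-myocarditis. It did not pass the filter and was not tested, and no fold is given.

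**Figure D1:**
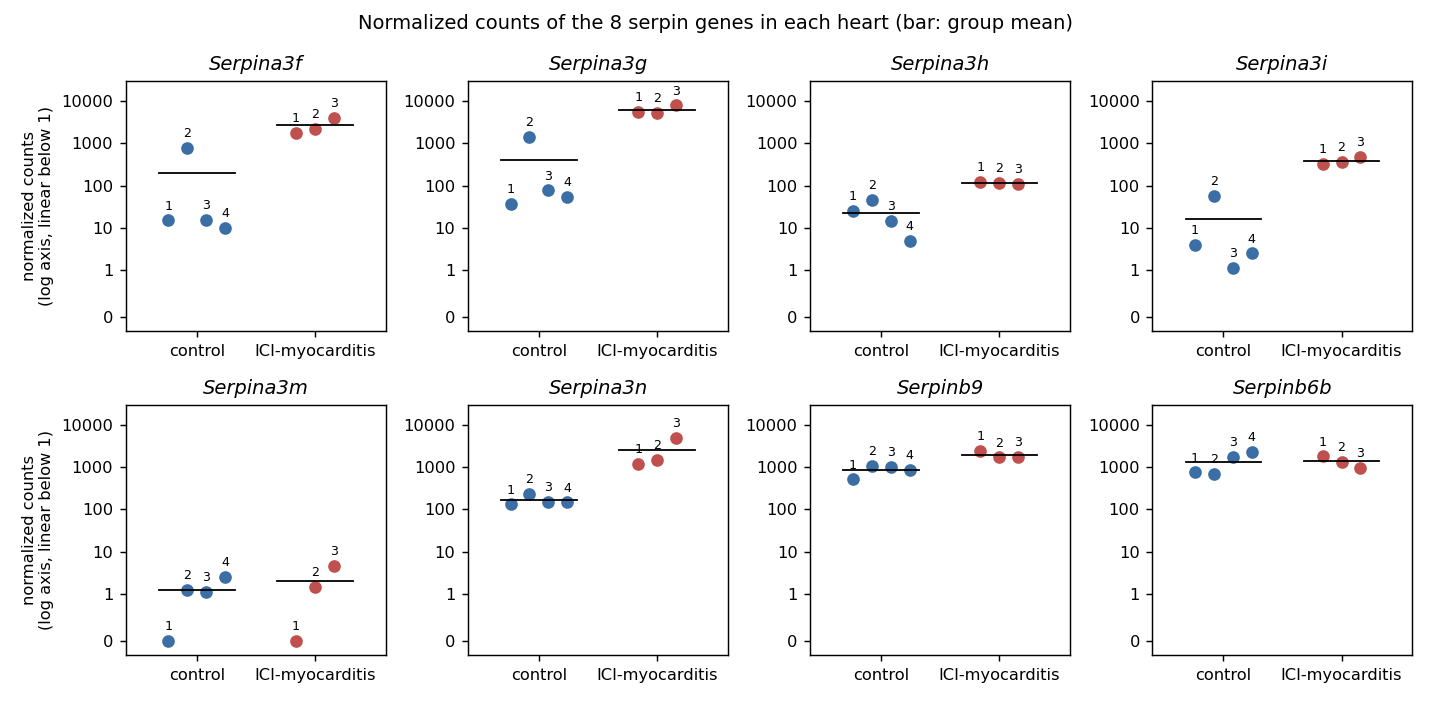
Normalized counts of each member in each library (vertical log axis, linear below 1), with control and ICI-myocarditis hearts side by side, numbered by replicate, and horizontal lines at group means. Diseased hearts lie above all controls for 6 genes, control 2 is the high control for Serpina3f, Serpina3g and Serpina3i, Serpina3m stays at or below 4.58, and the groups overlap for Serpinb6b.

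The clade B members were already well expressed in control hearts. Serpinb9, the intracellular granzyme B inhibitor, stood at 513, 1051, 1008 and 848 normalized counts across controls 1 to 4, against 2448, 1705 and 1780 across ICI-myocarditis 1 to 3. Groups did not overlap, and the lowest diseased heart was 1.62 times the highest control. Means were 855 ± 244 (SD, n = 4) and 1978 ± 409 (SD, n = 3), with a limma log2 fold change of 1.24 (SE 0.277) for Serpinb9. Control 2 was 1.33 times the mean of the other controls, so Serpinb9 shared little of the excess that Serpina3g had in that heart.

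Serpinb6b, the granzyme A inhibitor, was the member that did not separate the groups. It stood at 749, 677, 1737 and 2246 normalized counts across controls 1 to 4, against 1797, 1332 and 972 across ICI-myocarditis 1 to 3. Controls 3 and 4 held far more than controls 1 and 2, and the diseased hearts fell within the range of the controls. Means were 1352 ± 767 (SD, n = 4) and 1367 ± 413 (SD, n = 3). The limma log2 fold change of Serpinb6b was 0.16 (SE 0.436), and its sign turned when control 1, control 2 or ICI-myocarditis 1 was left out (-0.06, -0.11 and -0.06) and in limma-voom with quality weights (-0.01).

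Of the 8 members, 7 were tested and 6 were called higher in ICI-myocarditis at an adjusted p of 0.05 (limma, Benjamini-Hochberg adjustment over 15258 genes). The share of all tested genes called higher was 11.7%. All 6 also had every diseased heart above every control, which held for 17.3% of tested genes. Since this contrast was in view when the genes were listed, nothing is read from these counts. The median log2 fold change of the 7 tested members was 3.66, and that of all genes tested was -0.02. edgeR called 4 members, leaving out Serpina3f and Serpina3g, where it called 10.1% of all tested genes higher. DESeq2 called 5, leaving out Serpina3f, where it called 2160 of the 15258 tested genes higher. Serpina3i and Serpina3n were called in all 18 alternative analyses, Serpina3g and Serpinb9 in 17, Serpina3h in 14 and Serpina3f in 13. Serpina3f was lost without control 1, control 3 or ICI-myocarditis 3, Serpina3h without control 3 or any 1 of the diseased hearts, and Serpinb9 without ICI-myocarditis 1.

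Control 2 set the size of the contrast for some members and hardly for others. Set against controls 1, 3 and 4, the diseased mean was 197 times higher for Serpina3f, 152 times for Serpina3i, 112 times for Serpina3g and 17.6 times for Serpina3n. Against control 2 alone the same mean was 3.44 times higher for Serpina3f, 6.84 for Serpina3i, 4.31 for Serpina3g and 10.9 for Serpina3n. The order of the genes thus depended on which control hearts stood for the baseline, and Serpina3n, last of these genes in the first comparison, came first in the second. With control 2 left out, all 6 members were called, beside 14.9% of the genes tested, and the log2 fold change of Serpina3f was 7.45. Control 2 also had the highest T and NK cell marker sum of the controls. The part of those cells in its serpin levels was not tested.

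**Figure D2:**
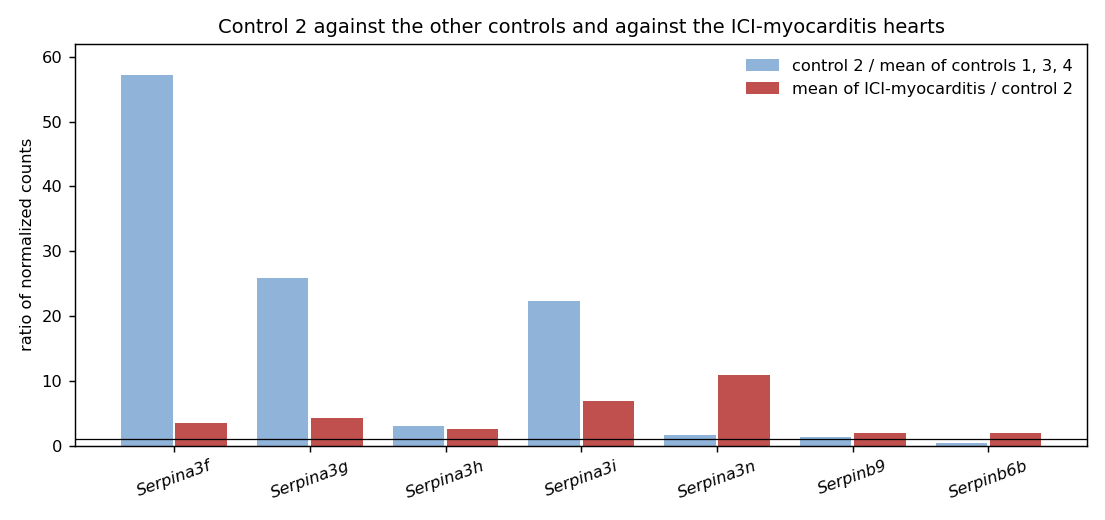
Ratio of normalized counts (vertical axis, linear from 0) for control 2 over the mean of controls 1, 3 and 4 in blue, and for the mean of the 3 ICI-myocarditis hearts over control 2 in red, for the 7 members tested, with a line at 1. The blue bar is the taller one for Serpina3f (57.2 against 3.44), Serpina3g, Serpina3h and Serpina3i, and the red bar for Serpina3n (1.62 against 10.9), Serpinb9 and Serpinb6b.

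Per kb of exon, the members ranked differently in the 2 groups. In controls Serpinb6b was highest, at 598 ± 339 normalized counts per kb (SD, n = 4), followed by Serpinb9 at 245 ± 69.9, Serpina3g at 191 ± 329, Serpina3f at 89.3 ± 167 and Serpina3n at 79.3 ± 21.6. Serpina3h (15.8 ± 12.2), Serpina3i (7.24 ± 12.2) and Serpina3m (0.71 ± 0.60) came last. Neighbours in this order differed by less than the larger SD of the pair, except for the steps from Serpinb6b to Serpinb9 and from Serpina3n to Serpina3h. In ICI-myocarditis the per-kb level of Serpina3g was highest, at 2952 ± 706 (SD, n = 3). Serpina3n (1210 ± 986) and Serpina3f (1168 ± 531) were next and did not differ beyond their spread, nor did Serpinb6b (604 ± 183) and Serpinb9 (566 ± 117). Serpina3i (175 ± 34.6), Serpina3h (81.7 ± 4.95) and Serpina3m (1.17 ± 1.36) followed in that order, with gaps wider than their SD.

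Hearts differed in the level and in the make-up of the Serpina3 cluster as a whole. Summed over the 11 Serpina3 rows of the table, the level was 111, 1207, 143 and 151 normalized counts per kb in controls 1 to 4, and 4223, 4400 and 8195 in ICI-myocarditis 1 to 3. Serpina3n made up 57.1%, 49.8% and 47.0% of that sum in controls 1, 3 and 4, but 9.21% in control 2 and 13.4%, 16.3% and 28.6% in the diseased hearts. Serpina3g took 15.5%, 25.5% and 17.0% in controls 1, 3 and 4, 56.7% in control 2, and 62.01%, 56.2% and 45.9% in the diseased hearts. Serpina3f took 5.93%, 4.76% and 2.90% in those 3 controls, 28.1% in control 2 and 18.6%, 21.5% and 21.7% in disease. By composition, control 2 therefore sat with the diseased hearts, although its cluster sum was below all of theirs. Control 4 alone had a large share from Serpina3k (19.4%), a copy made mainly in liver, in the heart with the high liver markers (Alb 425 normalized counts, against 0 in the other controls). What part liver RNA had in the Serpina3 values of control 4 was not tested. Its Serpina3g, Serpina3f and Serpina3n levels lay at or within the range of controls 1 and 3, or below it.

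**Figure D3:**
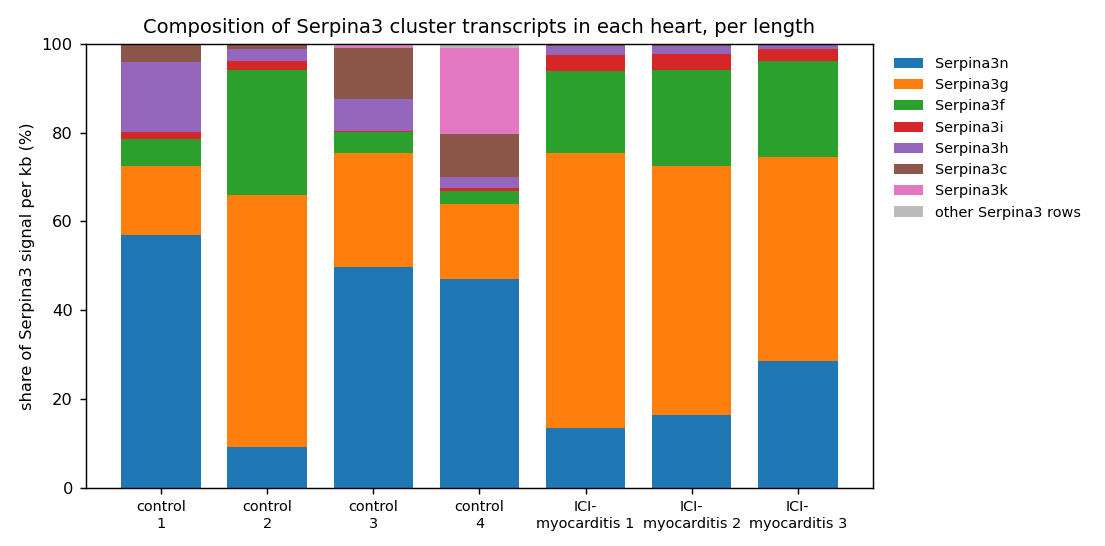
Share of the summed Serpina3 signal per kb of exon (vertical axis, percent) taken by each gene in each of the 7 libraries, as stacked bars. Serpina3n (blue) is the largest part in controls 1, 3 and 4, at 47.0% to 57.1%, and Serpina3g (orange) in control 2 and the ICI-myocarditis hearts, at 45.9% to 62.01%. Serpina3k (pink) appears in control 4.

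The genes whose levels ran most like each member across the 7 libraries were found by Pearson's r of log2(normalized count + 1), given as a description. All points share the 2 groups and the size factors, and a gene that separates the groups reaches a high r with any other that does. For Serpina3f they included Fcho1 and Gzmk (both r = 0.997), for Serpina3g Apol7e (0.999), Cd274 and Lat (both 0.998), and for Serpina3i Batf2 (0.998), Lag3 (0.996) and Sh2d2a (0.995). For Serpina3n they were Daglb, Adora3 (both 0.998) and Man2b1 (0.997), for Serpina3h Crmp1 (0.993), Fndc7 (0.991) and Cdkn2a (0.990), and for Serpinb9 Rab7l1 (0.996), Vwa5a (0.993) and S100a4 (0.991). Serpinb6b ran with Rsl1d1 (0.996), Nup43 and Ppp2r3c (both 0.985). No gene was shared between these lists. Lat, Lag3, Sh2d2a and Gzmk, which fell to Serpina3f, Serpina3g and Serpina3i, are genes of lymphocytes, Cd274 encodes PD-L1 and Man2b1 a lysosomal mannosidase.

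Promoters were read for 6 of the 8 members, since the RefSeq table (GRCm38.p6, 250 bases before to 50 after each start site) held none for Serpina3h or Serpina3m. Both strands were searched for TTCNNNGAA (a STAT site of the GAS type), GAAA, any 2 bases and GAAA (an interferon-stimulated response element), GGG, any 2 bases and TTTCC (an NF-kB site) and TTNNGCAA (a C/EBP site). These letters occur in 8.30%, 3.44%, 1.63% and 10.8% of the 32851 promoters in the table. The 4 Serpina3 stretches below show an aligned region of the cluster, chosen after the matches were seen, and capitals mark motif matches.
Serpina3f, chr12:104214356-104214455: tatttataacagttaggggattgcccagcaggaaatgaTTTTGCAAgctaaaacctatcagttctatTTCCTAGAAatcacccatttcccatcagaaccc
Serpina3g, chr12:104236047-104236146: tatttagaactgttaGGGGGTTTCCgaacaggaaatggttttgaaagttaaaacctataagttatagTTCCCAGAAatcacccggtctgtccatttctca
Serpina3i, chr12:104262953-104263052: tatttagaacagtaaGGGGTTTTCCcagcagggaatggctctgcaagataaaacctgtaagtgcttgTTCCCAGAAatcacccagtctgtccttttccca
Serpina3n, chr12:104406518-104406617: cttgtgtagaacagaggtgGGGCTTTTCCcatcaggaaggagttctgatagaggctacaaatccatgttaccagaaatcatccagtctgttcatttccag
The GAS match sat in the same place of the alignment in Serpina3f, Serpina3g and Serpina3i, starting 121, 33 and 102 bases before their listed start sites (the first of those listed for Serpina3f), and the aligned bases of Serpina3n did not hold it. The NF-kB match was present in Serpina3g, Serpina3i and Serpina3n. In Serpina3f 2 C/EBP matches were found, 1 of them in the stretch shown.
The clade B promoters are shown over the 100 bases before the start site.
Serpinb9, chr13:33004441-33004540: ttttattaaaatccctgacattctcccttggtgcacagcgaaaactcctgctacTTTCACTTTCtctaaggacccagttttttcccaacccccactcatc
Serpinb6b, chr13:32965161-32965260: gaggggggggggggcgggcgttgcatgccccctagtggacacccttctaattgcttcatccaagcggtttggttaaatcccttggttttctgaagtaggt
Serpinb9 had an interferon-stimulated response element on the minus strand, from 46 to 37 bases before this start site, which lies inside the annotated gene. Serpinb6b held none of the 4 motifs in its 300 bases, and its listed start site also lies inside the annotated gene. A match of letters shows neither binding nor use of a site, and the window leaves out more distant elements.

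A list of cytokine and glucocorticoid pathway genes held cytokines, receptors, transcription factors and a few of their targets. Of 19 tested, 8 were called higher and none lower, beside 11.7% of all tested genes called higher. The median log2 fold change was 0.72, against -0.02 over all genes, and 9 had an unadjusted limma p under 0.05 in either direction. The 11 not called had log2 fold changes from -0.47 for Ifngr2 to 0.92 for Cebpd. Ifng, which encodes interferon-gamma, rose by 5.96 (SE 1.14, limma adjusted p = 0.00935) and Socs3, a target of STAT3, by 3.16 (SE 0.463, adjusted p = 0.00411) on the log2 scale. In order, the controls held 2.02, 55.5, 4.47 and 0 normalized counts of Ifng, against 244, 283 and 583 across the diseased hearts. Control 2 was 25.7 times the mean of the other controls. It alone among the controls reached the minimum count of the filter, so Ifng entered the test through the diseased group.

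Fewer of the other serpins could be measured. Of 55 other Serpin rows, 15 were at 0 in all libraries and 16 were tested, of which 4 rose and none fell, beside 11.7% of all tested genes called higher, with a median log2 fold change of 0.64 (8 of the 16 had an unadjusted limma p under 0.05, in either direction). Leaving out ICI-myocarditis 2 or ICI-myocarditis 3 reduced the 4 to 1. Serping1, the C1 inhibitor of complement, stood at 3092 ± 431 normalized counts (SD, n = 4) among controls and rose in ICI-myocarditis by a limma estimate of 1.96 in log2 units (SE 0.276, adjusted p = 0.00383). Serpinb1b rose by 2.96 (SE 0.585, adjusted p = 0.0103), Serpinb9b by 2.43 (SE 0.552, adjusted p = 0.0183) and Serpinb1c by 2.77 (SE 0.652, adjusted p = 0.0212). These 3 were rare, with 48.1 normalized counts as the highest value in any library. Among the controls, Serpinb1b never reached 10 normalized counts, Serpinb9b did so only in control 2 and Serpinb1c only in control 1. All 3 thus entered the test through the diseased group. Serpinb9b is a paralog of the member Serpinb9, and Serpinb1 proteins inhibit neutrophil serine proteases. The paralog Serpinb6a, with 3237 ± 905 normalized counts in controls, had a log2 fold change of 0.37 (SE 0.282, adjusted p = 0.434), and the cluster gene Serpina3c one of 0.68 (SE 0.477, adjusted p = 0.383).

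**Figure D4:**
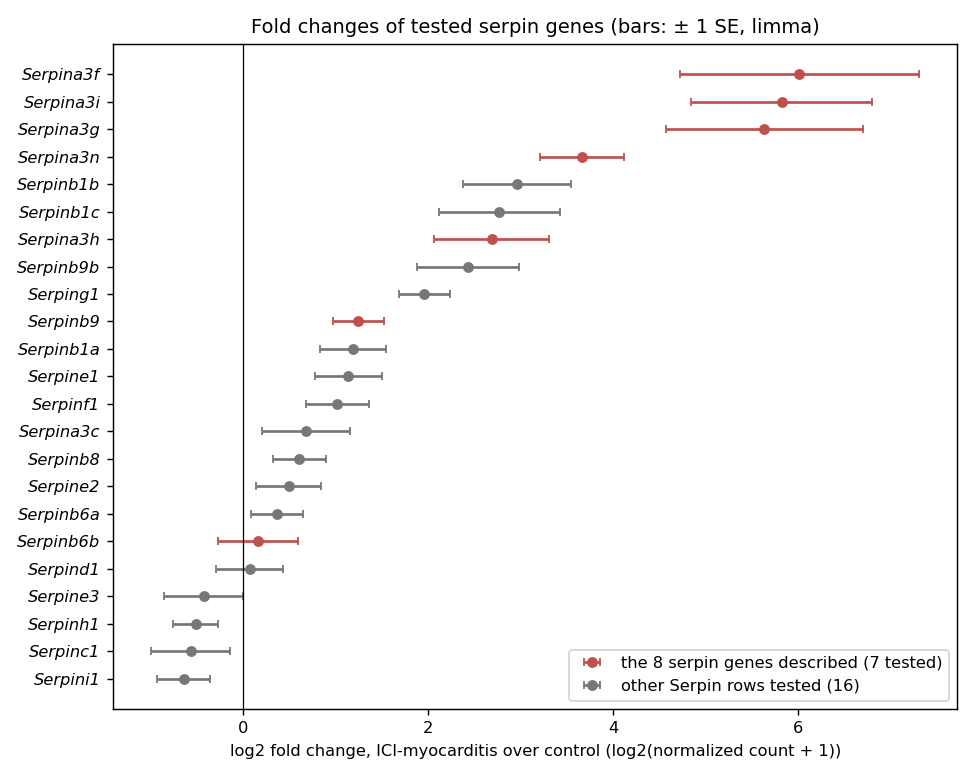
Log2 fold changes of ICI-myocarditis over control (horizontal axis, log2(normalized count + 1) scale, limma) for the 7 members tested in red and 16 other serpin genes in grey, with bars of 1 SE to each side. Serpina3f, Serpina3i, Serpina3g and Serpina3n, at 3.66 to 6.01, lie above all others, and Serpinb6b (0.16) lies near 0.

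Protease families that hold the known targets of these inhibitors were read from the same fit, together with perforin (Prf1), which is not a protease. Over all 15258 genes tested, 11.7% were called higher and 4.00% lower. Of 11 genes for granzymes and perforin, 5 were tested: Gzma (log2 fold change 4.13, SE 0.973, limma adjusted p = 0.0213), Gzmb (5.30, SE 1.0, adjusted p = 0.00897), Gzmk (4.05, SE 0.936, adjusted p = 0.0196) and Prf1 (5.39, SE 0.798, adjusted p = 0.00422) rose, and Gzmm fell (-1.43, SE 0.411, adjusted p = 0.0447). The call of Gzmk was lost in 6 of 18 alternatives, among them edgeR (2.93, adjusted p = 0.0768) and DESeq2 (2.96, adjusted p = 0.0656), and that of Gzmm in 10 of 18, among them edgeR (-1.26, adjusted p = 0.0787). Among the controls, Gzmk reached 10 normalized counts only in control 2, so Gzmk entered the test through the diseased group. Gzmc, Gzmd, Gzme, Gzmf, Gzmg and Gzmn were too low to test. Gzmb, the target of Serpinb9 and Serpina3n, stood at 4.03, 152, 12.3 and 8.76 normalized counts across the controls, against 496, 542 and 1264 across the diseased hearts, so control 2 was the high control here as it was for Serpina3g. Of 10 lysosomal cysteine cathepsins, Ctss (4.29, SE 0.392, adjusted p = 0.00251), Ctsz, Ctsc and Ctsh rose and Ctsf fell. Cathepsins B and L did not pass the test, with limma log2 fold changes of 0.78 for Ctsb (SE 0.302, adjusted p = 0.117) and -0.20 for Ctsl (SE 0.232, adjusted p = 0.627). Ctsb passed in 3 of 18 alternatives, among them DESeq2 (0.76, adjusted p = 0.0393). Ctsg, for cathepsin G, had 0 counts in 6 libraries and 1.12 in control 3, and of the 3 serine protease genes tested Mcpt4 fell (-1.60, SE 0.468, limma adjusted p = 0.0476), a call kept in 7 of 17 alternatives and lost in edgeR (-1.55, adjusted p = 0.0688). Among the cystatins and stefins, the other inhibitors of cysteine cathepsins, Cst7 (3.80, SE 0.759, adjusted p = 0.0109) and Cstb (1.33, SE 0.305, adjusted p = 0.0189) rose, and Cst3 had a log2 fold change of 0.22 (SE 0.277, adjusted p = 0.642). Leaving out ICI-myocarditis 3 lowered the protease and cystatin genes called from 13 to 6 of 22 tested, and all genes called from 2397 to 986.

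**Figure D5:**
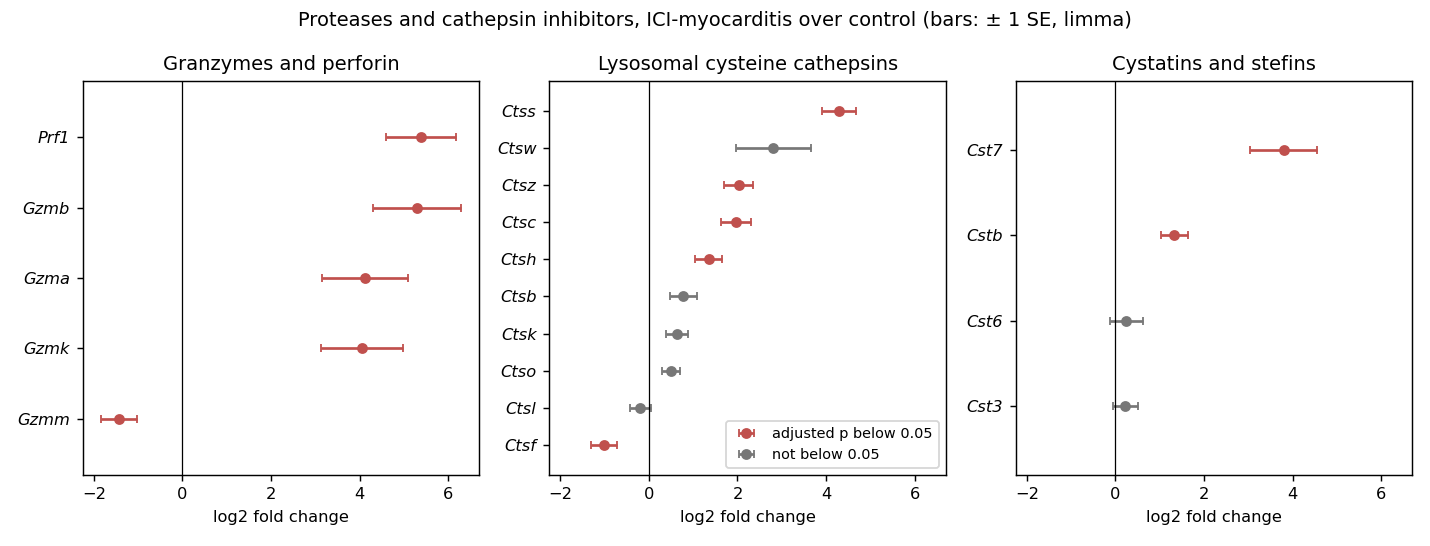
Log2 fold changes of ICI-myocarditis over control (horizontal axes) for the tested granzyme and perforin genes, cysteine cathepsins, and cystatins and stefins, with bars of 1 SE to each side and adjusted p below 0.05 in red. Gzmb at 5.30 and Prf1 at 5.39 are the highest, and Ctsb and Ctsl, at 0.78 and -0.20, are grey.

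Markers of several cell groups moved with the members. For the counts of markers called below, the shares over all tested genes were 11.7% called higher and 4.00% called lower. Summed macrophage markers were 15733.41 to 20798.00 normalized counts in controls and 59738.72 to 90611.11 in ICI-myocarditis, with 9 of 10 markers called higher. T and NK cell markers, whose sums are given above, had 10 of 11 called higher. The 1 not called was Ncr1 (log2 fold change 1.05, SE 0.755, limma adjusted p = 0.395). Its value in control 2 (44.4 normalized counts) was above those in ICI-myocarditis 2 and 3 (24.6 and 18.3). The macrophage sum of control 2 was 20798.00, against up to 20540.18 in the other controls. Single macrophage markers of control 2 stood at 0.65 (Cd14) to 1.57 (Itgam) times the mean of the others. Its Serpina3n and Serpinb9 levels were 1.62 and 1.33 times the mean of the others. Its T and NK cell marker sum, Serpina3f, Serpina3g and Serpina3i stood much further from the other controls, and Serpina3h was 3.06 times their mean. Single T and NK cell markers of control 2 stood at 1.73 (Cd4) to 18.9 (Cd3e) times the mean of the others. Neutrophil marker sums (62.51 to 224.51 in controls, 343.78 to 897.81 in disease) did not overlap either, with 2 of 4 tested markers called higher. Those called were Csf3r (log2 fold change 2.91), with 282 to 820 normalized counts in diseased hearts, and Ltf (2.93). Ltf was rare, with 16.8 to 26.1 normalized counts in diseased hearts and at most 7.40 in controls. Ltf thus entered the test through the diseased group. S100a8 and S100a9, not called, had -0.20 and -0.62. Fibroblast marker sums (100890.01 to 140933.18 in controls, 164852.00 to 225322.49 in disease) also stood apart, with 3 of 9 called higher. Those 3 were Col1a1, Col1a2 and Col3a1. The 6 fibroblast markers not called had log2 fold changes from -0.67 for Gsn to 0.70 for Tcf21. Of 5 mast cell markers tested, 2 were called lower, and the sums overlapped. Endothelial marker sums were lower in disease (23290.11 to 30024.45, against 31639.15 to 81189.90), with 4 of 8 markers called lower. The part of these cells in the members' levels was not tested.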

How the data were processed

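Bulk RNA sequencing of 4 control and 3 ICI-myocarditis hearts was analysed from 1 table of 23420 gene rows. Groups and replicate numbers came from the sample titles. The per-library values are a signal that the authors deposited, namely reads per gene scaled by a size factor for each library. This was seen in the values: 100% were whole multiples (within 0.01 of a read) of a step per library, which gave back the reads. In control 1 the step is 1.01, so wholeness shows less there. Per the file headers, the table also holds the authors' own log2 fold change, a test statistic (a score) and a p-value; 41 rows have a fold change and no p-value. STAR 2.7.3 and GRCm38 (mm10) are named in the submitters' processing notes, and the counting program is not given in the sources used here.

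The members and all gene lists were chosen with earlier results of these data known. Genes that reached 10 normalized counts in 3 or more libraries entered limma 3.58.1 (run in R 4.3.3), fitted to log2 of the normalized count plus 1 with a variance trend and robust empirical Bayes, Benjamini-Hochberg adjustment over all tested genes and a threshold of 0.05. This scale understates the change of low genes. The test was checked on simulated data. There limma recovered 68% of genes changed by a log2 size of 2 and 10.2% of those changed by 1. Of its calls there, 8.24% were on unchanged genes. A change of a log2 size near 1 can therefore go uncalled. edgeR 4.0.16 and DESeq2 1.42.0 on the recovered reads, other pseudocounts, filters and scalings, limma-voom, limma without trend or robust variance, each library left out and a replicate block made 18 alternatives.

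Named genes were the 8 members, the other serpin rows past the threshold, the granzyme and perforin list, the genes of lowest p in each other list with a few set in advance, and the 3 genes most like each member. A few genes that met this rule are not reported here. Serpinb1a, Serpinb6a, Serpina3c and the marker genes were named after their values were seen. Coding bases came from GENCODE M21 transcripts, aligned with Biopython 1.88 and, for the loop stretch, MAFFT 7.526. They replaced the planned protein comparison, for which no protein table was used here. Promoters came from RefSeq (GRCm38.p6). Rows with names turned into dates numbered 27.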

Additional observations from a re-analysis of the deposited data

Results flagged for a closer look

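In 1 of 33 named genes examined in the 4 controls, a library lay far from the rest by Dixon's ratio. For Serpina3f, on the log2(normalized count + 1) scale, the gap between control 2 (777 normalized counts) and the next control (15.6) was 0.903 of the whole range of the controls, above Dixon's critical value for 4 samples. Chance flags about 1 in 20 such groups, or about 2 of the 33 genes.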

How the results depend on the processing

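Of 33 named genes tested, 31 kept their direction in all alternatives that tested them and 16 kept their side of the threshold; values totalled 522 the same, 52 weaker, 5 stronger and 6 reversed. Reversed values were those of Serpinb6b in limma-voom with quality weights (-0.0126) and without control 1 (-0.06), control 2 (-0.11) or ICI-myocarditis 1 (-0.06), and of Cst6 in limma-voom (-0.0589) and without control 2 (-0.0274). With 1 library left out, Serpinb6b ranged from -0.11 to 0.47 and Cst6 from -0.0274 to 0.41. None of the 6 reversed values passed the threshold, and the cause was not tested. Genes called numbered 2397, with 4038 in limma-voom and 986 to 3340 when 1 library was left out, lowest without ICI-myocarditis 3. DESeq2 called 3441. Members called stayed at 4 to 6 with 1 library left out. Other serpins called were 4, but 1 with a filter at 50 normalized counts, which tests fewer genes, 7 in DESeq2, 7 in limma-voom and 1 to 5 with 1 library left out, lowest without ICI-myocarditis 2 or ICI-myocarditis 3. Protease and cystatin genes called were 13, with 6 to 14 when 1 library was left out. Scaling by library size moved the median log2 fold change of all genes from -0.02 to 0.13.

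Same-numbered libraries did not deviate together (correlations of -0.27, -0.21 and -0.08), so the numbers are not taken to pair the animals. With the number as a replicate block, 1764 genes, 6 members, 5 other serpins and 11 protease and cystatin genes were called.

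With 3 and 4 animals the spread between hearts limits the comparison for all but the lowest genes. For Serpina3m, at 6 reads or fewer in every library, and for Serpina3i in controls 1, 3 and 4, at 4 reads or fewer, depth is the limit.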

Other observations

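Control 4 carried transcripts of other clade A serpins that the remaining controls nearly lacked. The Serpina1 rows, genes for antitrypsin made mainly in liver, summed to 112.60 normalized counts in control 4, against 0 to 12.34 in controls 1 to 3 and up to 3.82 in ICI-myocarditis. Serpina3k had 60.1 normalized counts in control 4 and no more than 2.05 in any other library.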
